A study of Medicago sativa with 6 samples.

Results

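The transcriptome of developing alfalfa seedpods was compared with that of flower buds, gene by gene, in the genotype RegenSY27x. Genes were taken into the comparison when they reached 10 TMM CPM in either library, which left 18111 of 164633 annotated genes. TMM CPM are counts per 1000000 of a library total scaled by the trimmed mean of M-values. A further 146522 genes were below that level in both, and 83879 of these had no count in either. Seedpod and flower were 2 of 6 tissues collected, beside leaf, nodules, roots and stem. The plants had days of 16 hours at 22 °C and nights at 18 °C. From every tissue 3 harvested replicates were pooled into 1 library, so the spread between plants is not available and no p-value is given. The flower library's title names flower buds. The growth protocol puts all tissues at 8 weeks, while the stage label gives a 20 whose unit cannot be read with certainty. The labels give the same genotype for all 6 tissues and name no treatment.

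A flower bud encloses sepals, petals, stamens with developing pollen, and the carpel that holds the ovules. After fertilisation the carpel becomes the pod, and the ovules become seeds with an embryo, an endosperm and a seed coat, so the seedpod library mixes fruit wall and seed RNA while the bud library mixes floral organs and pollen. In such bulk samples, a larger share of cells of a type and more RNA per cell cannot be told apart. Alfalfa is tetraploid, and its annotation lists the copies of a gene on 4 haplotypes of each of 8 chromosomes separately, written here as 4.1 to 4.4 for chromosome 4. The files pair gene identifiers with no names, apart from 1 PHO2 gene, so genes are described by position, exon number and coding length, and tissue markers could not be used to check the labels.

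The totals were 8735091 counts in seedpod and 9018902 in flower, within the range of 8568581 to 9883512 over all 6 libraries. At this depth 3 counts were worth 0.334 TMM CPM in seedpod and 0.298 in flower. At least 10 TMM CPM was reached by 15483 genes in seedpod and by 14929 in flower. All intervals are 95% exact intervals. Those of levels (Poisson) and of ratios (Clopper-Pearson) cover counting error. Those of shares of genes (Clopper-Pearson) take each gene as an independent draw, which haplotype copies and neighbouring genes need not be. Reads that carry no molecular identifier can be copies of 1 molecule, and biological spread is not covered. How reads matching several haplotype copies were counted is not given in the sources used here, so the split of counts between copies is uncertain for any single gene, and the same holds for overlapping and antisense genes.

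Most genes were at similar levels in both organs, and more genes stood far higher in the seedpod than in the bud. Of the compared genes, 12667 (69.9%) were within 2-fold. The seedpod exceeded the flower at least 4-fold for 1547 genes, which is 8.54% of those compared, and the flower exceeded the seedpod for 939, which is 5.18%. These are called the seedpod side and the flower side. At 10-fold or more the counts were 833 (4.60%) and 408 (2.25%). When the lower end of the interval also had to reach 4, 1238 genes (6.84%) remained on the seedpod side and 703 (3.88%) on the flower side. The quartiles of the log2 ratio of seedpod to flower were -0.49 and 0.67, and its 5th and 95th percentiles were -2.05 and 3.09, so the tail was longer toward the seedpod. The median log2 ratio was 0.07 and 53.5% of genes were higher in seedpod, but on library totals in place of TMM both turned, to -0.076 and 46.4%, a shift of the median by -0.15. More genes were past 4-fold in seedpod than in flower under each of the 5 other scalings tried, on which they made up 56.8% to 62.2% of the genes past 4-fold, against 62.2% here.

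**Figure D1:**
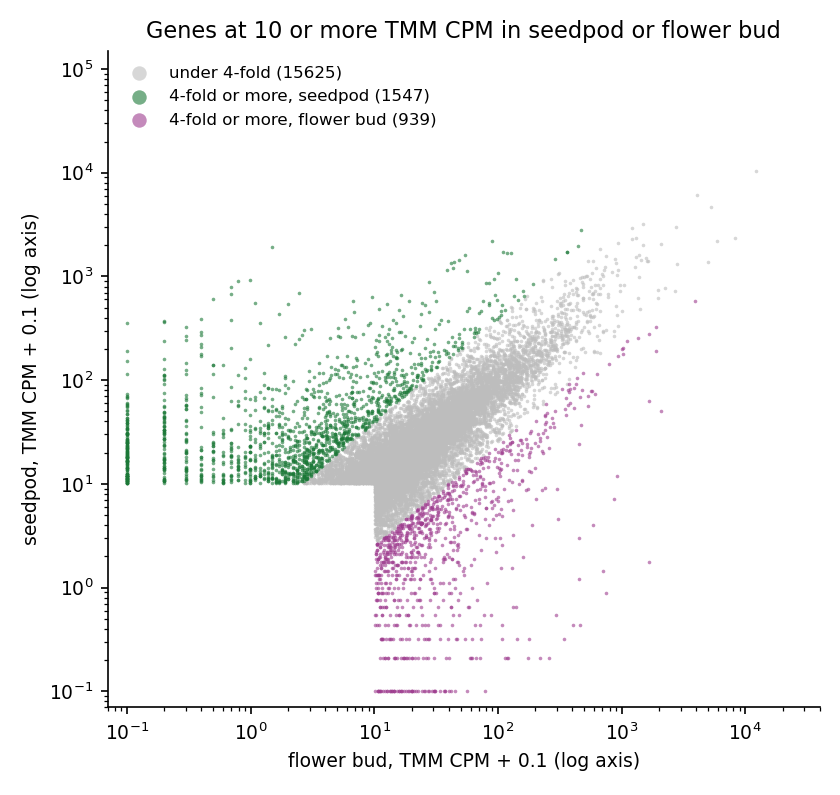
Level of each compared gene in flower (horizontal axis, TMM CPM, log axis) against seedpod (vertical axis, TMM CPM, log axis), with 0.1 added to both, 1 point per gene, and 1547 genes at 4-fold or more higher in seedpod and 939 higher in flower set apart by colour. The bulk of the 18111 genes lies along the diagonal, and genes at 0 counts are drawn at 0.1.

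The largest differences approached presence in one organ and near absence in the other. A ratio of 100-fold or more was found for 186 genes higher in seedpod and for 85 higher in flower, and the lower end of the interval also reached 100 for 70 and 28 of them. Between 10-fold and 100-fold lay 647 and 323 genes, between 4-fold and 10-fold 714 and 531, and between 2-fold and 4-fold 1609 and 1349. Flower had 0 counts for 39 of the 186 genes and for 111 of the 647, whose ratios are lower bounds set against 3 counts. Seedpod had 0 counts for 9 of the 85 and for 47 of the 323. The 4-fold threshold cut through a continuous distribution, with 171 genes at 3.5-fold to 4-fold and 143 at 4-fold to 4.5-fold higher in seedpod, and 165 and 98 higher in flower. Similarly, 1243 genes had a higher level of 9 to 10 TMM CPM in the pair and were left out, while 1118 had 10 to 11 and were kept.

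Seedpod-side genes took 14.5% of the seedpod counts and 1.51% of the flower counts. Flower-side genes took 9.02% of the flower counts and 0.965% of the seedpod counts. The 10 most abundant genes of the flower side held 22.6% of its counts in flower, against 13.5% for those of the seedpod side in seedpod. The flower side has 939 genes and the seedpod side 1547, so no difference in concentration is read from these shares. Of all counts in the library, the same 10 genes held similar shares, at 2.04% in flower and 1.95% in seedpod. The sides also took a larger share of genes with a high level in the higher of the pair. That level also enters the ratio, so this trend is not separate from the choice of sides. Among genes under 10 TMM CPM per kb of coding length in the higher of the pair, 5.86% were on the seedpod side and 3.50% on the flower side. Between 100 and 300 TMM CPM per kb the shares were 13.4% and 7.42%. Above 1000 TMM CPM per kb, 21 of 122 genes were on each side (17.2% each).

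The seedpod-side genes with the highest levels per kb of coding length were also abundant in vegetative organs. MS.gene87999, a single-exon gene of 696 nucleotides on chromosome 4.3 (70185592 to 70186287), had 2202 TMM CPM in seedpod (2172 to 2233) and 89.7 in flower (83.9 to 95.7). Its levels elsewhere were 4043 TMM CPM in roots, 1635 in nodules, 369 in stem and 65.2 in leaf. Roots thus exceeded seedpod, and the ratio of seedpod to flower was 24.6 (23.0 to 26.3). A single-exon gene of the same length on 4.4, looked up after its values were seen, had 879 TMM CPM in seedpod and 27.7 in flower, a ratio of 31.7. The other 5 single-exon genes of this length in that stretch of chromosome 4 had 7 or fewer counts in each library. The next 4 by level per kb were also abundant in stem. A 2-exon gene on 4.1 (70719228 to 70721036) stood at 946 TMM CPM in seedpod, 93.4 in flower and 1012 in stem, a 10.1-fold difference between the pair. A 5-exon gene on 4.4 (26578106 to 26579427) was 14.2-fold higher in seedpod than in flower, with 957 TMM CPM in roots and 862 in stem. A single-exon gene on 7.4 (9366558 to 9367328) was 29.7-fold higher, at 1615 TMM CPM in seedpod and 707 in stem. A 9-exon gene on 6.1 (2438427 to 2441500) was 5.10-fold higher, at 1467 TMM CPM in seedpod, 288 in flower and 901 in stem.

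Ranked instead by the lower end of the ratio, the leading seedpod genes were nearly confined to the pod among these libraries. MS.gene061247, a single-exon gene of 528 nucleotides on chromosome 8.3 (6023252 to 6023779), had 3179 counts in seedpod and 0 in flower, with 3 each in nodules and stem, 2 in leaf and 1 in roots. Its seedpod level was 354 TMM CPM (342 to 367), at least 1189-fold higher than in flower when 3 counts are set as the floor, while the exact interval of the ratio has its lower end at 966. An 8-exon gene on 4.2 (79338600 to 79341170) had 3253 counts in seedpod and 1 in flower, a ratio of 3649 (655 to 144184), with 28 counts in stem as its highest value outside the pod. The remaining 3 of the 5 belonged to a local group of genes and to a 4-haplotype set, both described next.

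A group of 9-exon genes on chromosome 3, picked out after the values were seen because members share the lengths of 2 adjacent exons, held 2 of the 5 genes ranked highest by the lower end of the ratio. It counts 12 genes over the 4 haplotypes, of which 4 were on the seedpod side and 8 did not reach the minimum level in seedpod or flower. On 3.4 a gene at 98111335 to 98115970 had 1926 TMM CPM in seedpod and 1.39 in flower, a ratio of 1385 (825 to 2534), with 19.4 in leaf and 3.50 or less in nodules, roots and stem. Its neighbour at 98104200 to 98108128 had 906 TMM CPM in seedpod and 0.695 in flower, a ratio of 1303 (632 to 3241). The last of those on 3.4, at 98073101 to 98076948, had 383 TMM CPM in seedpod and 0.596 in flower, a ratio of 643 (295 to 1753). The fourth, on 3.1 (90653908 to 90657688), had 490 counts in seedpod and 1 in flower. The minus-strand copies on 3.2 and 3.3 were low throughout, at 9.69 TMM CPM or less in seedpod. The 4 plus-strand genes of the group were instead highest in roots, at 45.0 TMM CPM on 3.1, 27.2 on 3.4, 16.8 on 3.2 and 0.530 on 3.3, and had 0 counts in flower.

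The 3 seedpod sets described here were chosen for the most members on the side, with ties taken by summed level. That all 4 haplotype copies of each were on the seedpod side follows from this choice. Of 114 sets with 4 compared copies, 1 per haplotype, 13 had all of them on the seedpod side. On chromosome 1 a set of 4 genes with 3 exons and 1062 nucleotides summed to 2496 TMM CPM in seedpod and 1.89 in flower, with 6.85 in nodules, 4.03 in roots, 2.51 in leaf and 2.21 in stem. The summed ratio of seedpod to flower was 1323 (847 to 2197), and the copies ranged from 1044-fold to 3781-fold with 1 to 9 flower counts each. On chromosome 2 a set with 12 exons and 3135 nucleotides summed to 2526 TMM CPM in seedpod, 81.5 in flower, 1215 in stem, 292 in roots, 39.6 in leaf and 19.2 in nodules. Its summed ratio was 31.0 (28.9 to 33.3), and although the copies differed in seedpod level from 170 to 1439 TMM CPM, their ratios stayed between 29.0 and 38.4. On chromosome 7 a set with 4 exons and 990 nucleotides summed to 1511 TMM CPM in seedpod, 4.47 in flower, 173 in roots, 35.7 in stem, 16.5 in nodules and 2.51 in leaf, a summed ratio of 338 (253 to 464). The first set was thus almost limited to the pod, while the other two also had counts in stem and roots.

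**Figure D2:**
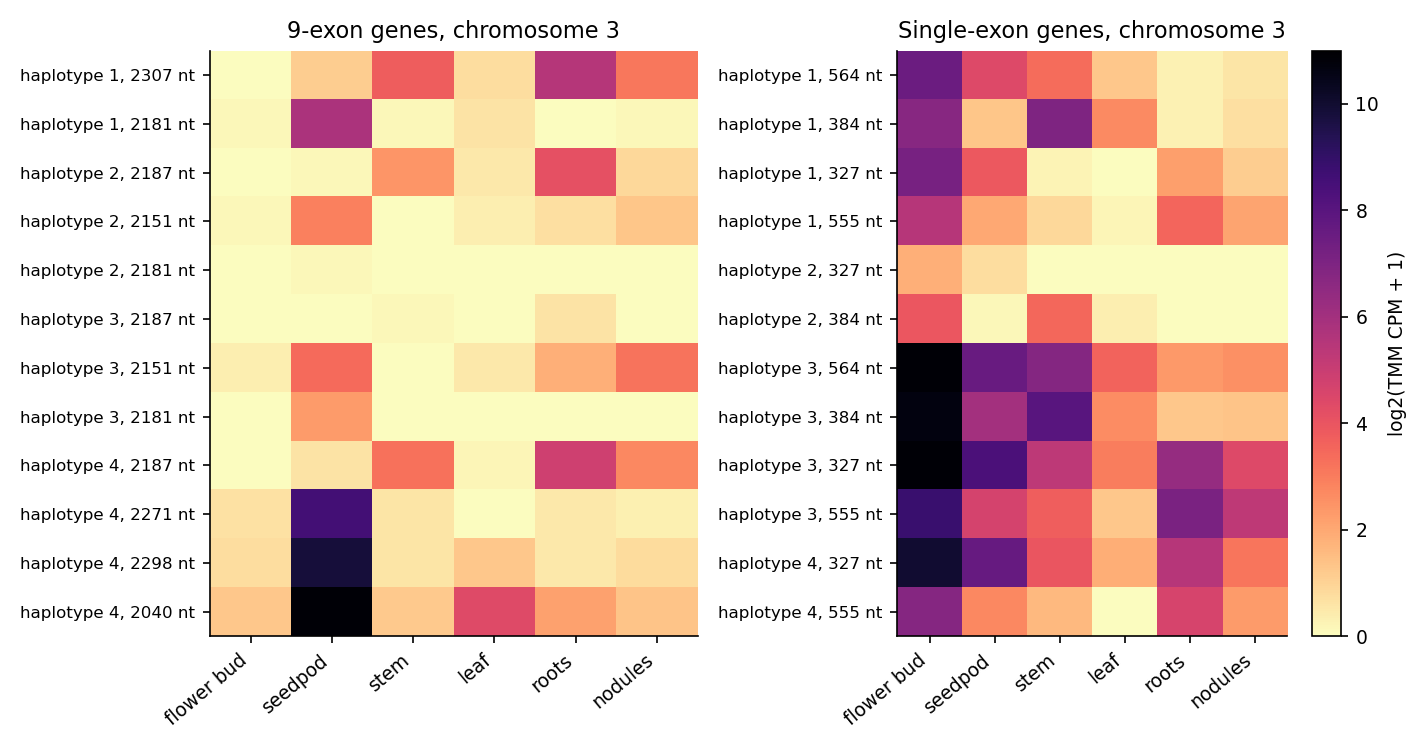
Levels as log2(TMM CPM + 1), by colour, in the 6 libraries (columns) for each gene (rows, named by haplotype and coding length) of the 9-exon group (left) and of the single-exon cluster (right) on chromosome 3. Among the 9-exon genes the darkest cell is that of the seedpod at 1926 TMM CPM and other genes peak in roots, while the single-exon genes are darkest in flower, at up to 1908 TMM CPM, except the 384-nucleotide gene of haplotype 1, which is darkest in stem.

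The flower-side genes with the highest levels per kb of coding length, a measure that favours short genes, were single-exon genes of 327 to 564 nucleotides. MS.gene84312 on chromosome 2.2 (12014419 to 12014766, 348 nucleotides) was at 2073 TMM CPM in flower against 49.9 in seedpod, a ratio of 41.5 (37.8 to 45.7), with 28.8 in stem and 6.82 or less in leaf, nodules and roots. The other 4 of the top 5 per kb all lay in 1 cluster on chromosome 3, which was examined further after its values were seen. It counts 12 single-exon genes of 4 lengths (327, 384, 555 and 564 nucleotides), all on the plus strand. Only genes with a count in at least 1 of the 6 libraries were listed, so silent genes of these lengths are left out. Of these, 11 were on the flower side and 1 on 3.2 did not reach the minimum level. On 3.3 the 564-nucleotide gene (13591902 to 13592465) was at 1908 TMM CPM in flower and 193 in seedpod, a ratio of 9.89. The 327-nucleotide gene (13604865 to 13605191) had 1882 in flower and 324 in seedpod, a ratio of 5.81. The 384-nucleotide gene (13601271 to 13601654) had 1661 in flower, 63.3 in seedpod and 255 in stem, a ratio of 26.2.

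The members of this cluster differed in where else they were found, with 1 pattern for the 384-nucleotide genes and another for the 555-nucleotide genes. All of the 384-nucleotide genes were higher in stem than in seedpod, with 124 TMM CPM in stem against 105 in flower on 3.1, and 10.2 in stem against 14.4 in flower on 3.2. The 555-nucleotide genes were second highest in roots, at 135 TMM CPM on 3.3, 23.2 on 3.4 and 10.7 on 3.1. Over the 11 genes on the flower side, ratios of flower to seedpod ran from 5.04 for the 327-nucleotide gene on 3.4 (13837295 to 13837621) to 129 for the 384-nucleotide gene on 3.2, the latter with 1 seedpod count (22.8 to 5140).

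Ranked by the lower end of the ratio, the leading flower genes had few counts in seedpod, and some of them were also found in stem or nodules. MS.gene22855 on chromosome 7.4 (1699863 to 1702818, 5 exons, 1089 nucleotides) had 16769 counts in flower, 15 in seedpod, 1751 in stem, 36 in leaf, 22 in nodules and 21 in roots. This is 1666 TMM CPM in flower against 1.67 in seedpod, a ratio of 997 (604 to 1781), with 168 in stem. Its same-structure copies on 7.1, 7.2 and 7.3 had 9, 2 and 3 counts in flower and 0 in seedpod. Nearly all counts of this set thus fell on the 7.4 copy, and both genes beside it on 7.4 were also on the flower side, at 28.6-fold and 74.2-fold.

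The other leading flower genes had 7 or fewer counts in seedpod. A 7-exon gene of 387 nucleotides on 3.1 (71573633 to 71575649) had 4670 counts in flower and 3 in seedpod, a ratio of 1388 (475 to 6731). Its copy on 3.3 had 2218 and 1 counts, and its copy on 3.2 had 29 and 0. A single-exon gene on 1.4 (82737105 to 82738520) had 2610 counts in flower and 1 in seedpod, a ratio of 2327 (417 to 91929). It headed a run of 3 adjacent flower-side genes that recurred on 1.1, where the gene of the same 1416 nucleotides had 4094 counts in flower and 3 in seedpod. In both runs the last gene had a much lower ratio, 4.23 on 1.4 and 4.07 on 1.1, and was higher in nodules than in flower. A 14-exon gene on 2.2 (44645641 to 44654788) was at 743 TMM CPM in flower and 0.780 in seedpod, a ratio of 953 (462 to 2371). A single-exon gene on 3.3 (50741080 to 50741919) had 3449 counts in flower and 2 in seedpod, a ratio of 1537 (425 to 12698), with 89 in stem and 88 in nodules.

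The 3 flower sets described here, chosen by the same rule and with ties by summed level, differed less from seedpod than the 3 seedpod sets did from flower. Of 114 sets with 4 compared copies, 1 per haplotype, 4 had all of them on the flower side. Not among the 3 is a chromosome 1 set with 7 exons and 2010 nucleotides. Its copies, the most widely spread of any all-flower set, ran from 6.69-fold to 53.5-fold. On chromosome 3 a set of 4 genes with 3 exons and 834 nucleotides summed to 1031 TMM CPM in flower, 119 in seedpod, 15.7 in stem, 3.06 in leaf, 1.34 in nodules and 1.38 in roots, a summed ratio of 8.64 (8.12 to 9.21). On chromosome 4 a set with 5 exons and 1095 nucleotides summed to 758 TMM CPM in flower and 106 in seedpod, a ratio of 7.17 (6.70 to 7.68), with 7.01 in stem and 1.67 or less elsewhere. A second chromosome 4 set, with 5 exons and 1587 nucleotides, summed to 670.3 TMM CPM in flower, 375 in roots, 148 in nodules, 102 in seedpod and 31.7 in stem, a ratio of 6.57 (6.14 to 7.05). It had 5 members, of which 1 on 4.4 was below the minimum level, at 50 counts in flower and 18 in seedpod.

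Genes of both sides were shorter and had fewer exons than the genes compared as a whole. The median coding length was 1269 nucleotides over all compared genes, 1164 on the seedpod side and 1083 on the flower side, and the median exon numbers were 5, 4 and 3. Single-exon genes made up 13.8% of all compared genes (13.3 to 14.3), 20.4% of the seedpod side (18.4 to 22.5) and 21.5% of the flower side (18.9 to 24.3). Long genes were scarce on both sides: 8.07% of all compared genes, 2.91% of the seedpod side and 2.13% of the flower side had 3000 nucleotides or more. Genes with 10 or more exons made up 24.1%, 13.5% and 11.6%. The median genomic spans followed the same order, at 3440, 2526 and 2268 nucleotides, and among genes with several exons the summed introns had medians of 2439, 1645 and 1535 nucleotides.

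The structure changed with the size of the ratio, and most on the flower side. From 2-fold to 4-fold up to 100-fold or more, the median coding length went from 1365 to 1090.5 nucleotides for genes higher in seedpod and from 1167 to 840 for genes higher in flower. Over the same 4 classes, single-exon genes made up 16.2%, 19.5%, 21.2% and 21.0% for seedpod. The intervals of the first and last overlapped (14.5 to 18.1 and 15.4 to 27.5). For flower they made up 18.7%, 17.3%, 24.8% and 35.3%, the last being 30 of 85 genes (25.2 to 46.4). Genes under 450 nucleotides made up 8.28% of all compared genes, 23.5% of the flower genes at 100-fold or more and 13.4% of the seedpod genes. Their share did not rise steadily. From 2-fold to 4-fold up to 10-fold to 100-fold it was 11.9%, 9.79% and 7.74% for flower, and 5.59%, 4.90% and 7.88% for seedpod. Among genes with several exons alone, the median lengths were 1329 nucleotides for all compared, 1282.5 on the seedpod side and 1155 on the flower side. Flower-side genes were thus shorter among genes of several exons too. A minimum level set per gene admits short genes only at higher levels per kb, and its part in these differences was not tested.

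**Figure D3:**
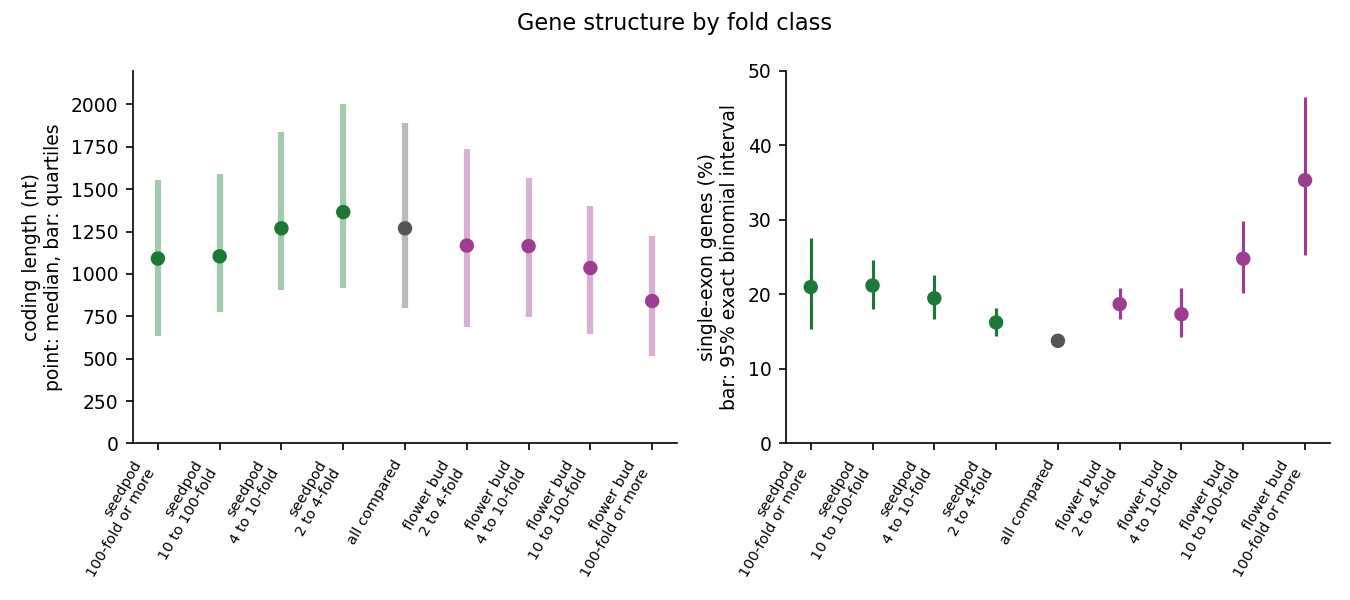
Coding length in nucleotides (left, points are medians and bars run between the quartiles) and percent of single-exon genes (right, bars are 95% exact binomial intervals) by fold class, with genes higher in seedpod to the left, all 18111 compared genes in the middle and genes higher in flower to the right. The flower class at 100-fold or more has the shortest median (840 nucleotides) and the highest single-exon share (35.3%).

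Genes of both sides came from all 8 chromosomes and all 4 haplotypes. The seedpod side took 6.86% of the compared genes of chromosome 1 (5.94 to 7.86) and 10.6% of those of chromosome 2 (9.33 to 12.0), the lowest and highest shares. The flower side ranged from 4.44% on chromosome 4 (3.70 to 5.27) to 6.18% on chromosome 7 (5.20 to 7.27), whose intervals overlap. Over the 4 haplotypes the shares were even, at 8.50% to 8.66% for seedpod and 5.06% to 5.38% for flower.

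Genes of a side had an annotated neighbour on the same side more often than compared genes as a whole did. An adjacent annotated gene on the same side was found for 157 seedpod-side genes (10.1%), while 3.45% of all compared genes had a seedpod-side neighbour. For the flower side the values were 71 genes (7.56%) and 2.35%. A seedpod-side neighbour was found for 21 flower-side genes (2.24%), and a flower-side neighbour for 21 seedpod-side genes (1.36%). Both shares were below those of all compared genes (3.45% and 2.35%). The same-side neighbours formed 77 seedpod runs, 74 of 2 genes and 3 of 3 genes, and 32 flower runs, the longest being the 4 genes of the chromosome 3 cluster on 3.3. All genes of a run lay on the same strand in 63 of the 77 seedpod runs (81.8%) and in 26 of the 32 flower runs (81.3%). The same share was not computed for adjacent genes in general, so nothing about strand is read from these values. On 5.1 a seedpod run of 3 genes with 2 exons each (56047984 to 56071494) had ratios of 25.8, 37.5 and 98.3 and was also found in leaf, where the last gene had 115 TMM CPM against 117 in seedpod and 1.19 in flower.

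Copies of a gene on different haplotypes were never found on opposite sides in the sets compared, but copies of a side gene were not always past 4-fold themselves. A copy set holds genes of 1 chromosome number whose exons, at least 3 of them, have identical lengths in identical order, and which lie on at least 2 haplotypes. Of 14812 sets in the table, 2259 had at least 2 compared members. In 1934 of these (85.6%) no member was on a side, in 145 (6.42%) all compared members were on the seedpod side, and in 69 (3.05%) all were on the flower side. A further copy below the minimum level was present in 77 of the 145 and in 39 of the 69. With sets limited to 5 or more exons the counts were 100 and 40. In 62 sets seedpod-side members stood beside members of neither side, in 49 flower-side members did, and 0 sets had members on both sides. Of the 442 seedpod-side genes with a compared copy, 397 (89.8%) had at least 1 on the same side, and of the 225 such flower-side genes, 187 (83.1%) did. Over all compared genes 8.54% were on the seedpod side and 5.18% on the flower side. How many sets with members on both sides these shares alone would give was not computed. Copies of one gene are not replicates of each other, and whether reads were shared between them was not tested.

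**Figure D4:**
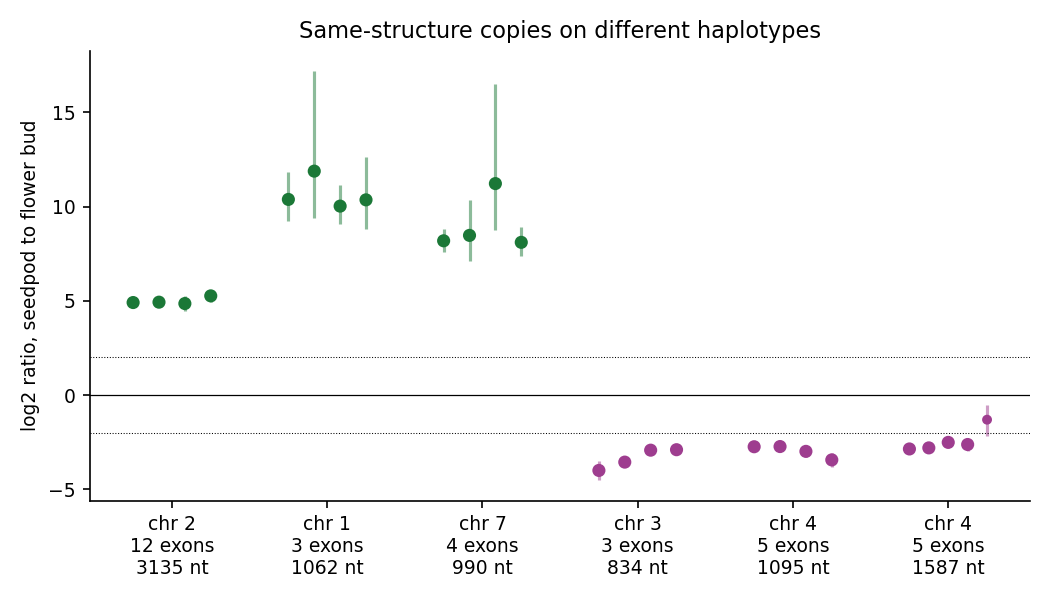
Log2 ratio of seedpod to flower for each copy of the 3 seedpod sets and the 3 flower sets with the most members, labelled by chromosome, exon number and coding length, where lines are 95% exact intervals and dotted lines mark 4-fold. Copies of the seedpod sets all lie above 4-fold and those of the flower sets below it on the flower side, except the small point of the copy under the minimum level (2.48-fold). The sets were chosen by their number of members on a side, with ties by summed level, so these positions follow from the choice.

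The range of log2 ratios between the highest and the lowest copy of a set had a median of 0.47 for seedpod sets, 0.45 for flower sets and 0.29 for sets on neither side. In the mixed sets it was 0.80 with seedpod members and 1.02 with flower members. The largest ranges were 4.85, 2.998 and 2.85, and in the mixed sets 7.77 and 7.09. The 4-fold rule itself bounds the range of sets on neither side. Only 2 compared members were present in 90 seedpod sets and 52 flower sets. No range was computed for unrelated genes, so whether copies lay closer together than such genes was not tested. In the mixed sets the copies off the side had median ratios of 3.20 and 2.86 toward the side of their set. Of 83 such copies in the mixed seedpod sets, 68 were at 2-fold to 4-fold and 7 were higher in flower. Of 65 in the mixed flower sets, 50 were at 2-fold to 4-fold and 5 were higher in seedpod.

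A few sets, singled out after their values were seen, had widely different copies. In a 5-exon set of 879 nucleotides on chromosome 8, the copy on 8.2 (13046095 to 13048314) had 512 counts in flower, 217 in seedpod and 437 in stem. One copy on 8.3 (10681790 to 10684009) had 277 counts in seedpod and 0 in the other 5 libraries, and 4 further copies on 8.3 had 0 in all 6. In a 24-exon set of 4257 nucleotides on the same chromosome, the copy on 8.1 (13218679 to 13228371) had 594 counts in flower and 210 in seedpod, while the copy on 8.4 (15746608 to 15757031) had 385 and 1. Ratios of flower to seedpod were 2.52 (2.15 to 2.97) and 343 (61.2 to 13590), so these 2 copies of identical exon structure did not overlap within counting error.

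One copy often supplied most of a set's counts, on the sides as elsewhere. Among sets of exactly 4 genes, with copies below the minimum level included, 125 had at least 1 seedpod-side gene and 77 at least 1 flower-side gene. The top copy held a median of 61.3% of the seedpod counts in the former and 69.1% of the flower counts in the latter. In 1518 sets with a compared gene and none on a side the medians were 67.2% in seedpod and 67.9% in flower. A top copy with 90% or more of the counts was found in 11.2% of the sets with a seedpod-side gene, in 18.2% of those with a flower-side gene and in 19.9% and 20.0% of the others.

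Levels in the other 4 tissues, which entered the choice of sides only through the scaling, differed between the sides and the rest. Side genes were chosen as low in 1 organ, with medians of 2.58 TMM CPM in flower for the seedpod side and 2.79 in seedpod for the flower side. Genes on neither side had medians of 20.2 in seedpod and 19.7 in flower. How far this choice alone favours genes that are low elsewhere was not tested. At least 10 TMM CPM was reached in none of leaf, nodules, roots and stem by 38.3% of seedpod-side genes (35.9 to 40.8) and by 43.9% of flower-side genes (40.7 to 47.1), against 7.87% of genes on neither side. It was reached in all 4 by 11.2%, 3.73% and 46.4%. The share in none grew with the ratio, to 83.9% of the genes at 100-fold or more higher in seedpod and 81.2% of those in flower. In all 4 tissues 0 counts were found for 74 seedpod-side genes (4.78%), 13 flower-side genes (1.38%) and 0.519% of all compared genes. A level of at least 4 times every other library was found for 510 seedpod-side genes (33.0%) in seedpod and for 379 flower-side genes (40.4%) in flower. The rule of the sides already sets this within the pair, and no such share was computed over all compared genes.

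**Figure D5:**
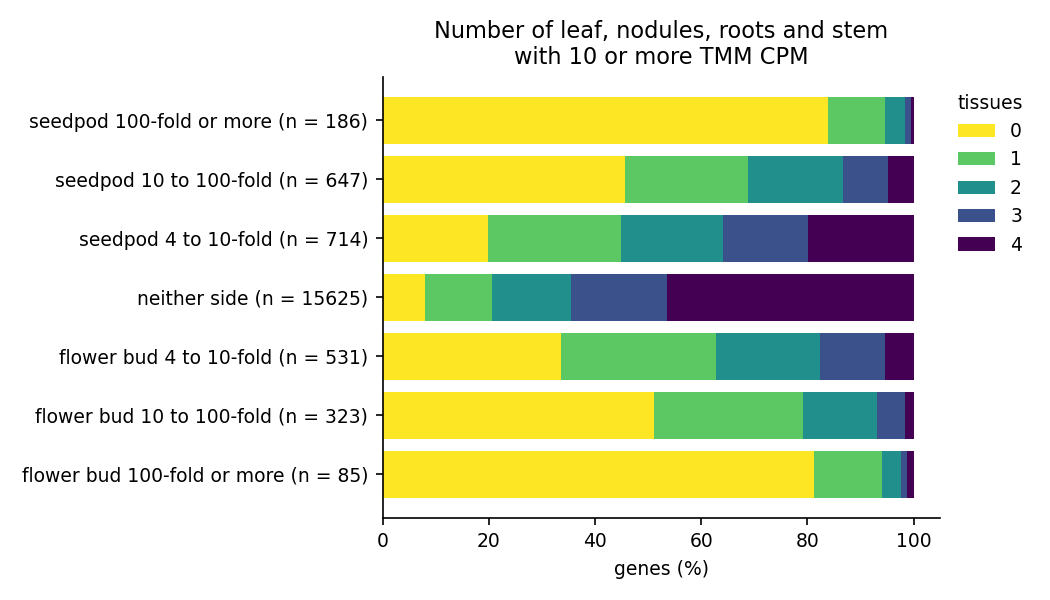
Percent of genes (horizontal axis) at 10 or more TMM CPM in 0, 1, 2, 3 or 4 of leaf, nodules, roots and stem (colours), stacked for each fold class of the seedpod and flower sides and for genes on neither side. The part at 0 of 4 covers 83.9% and 81.2% of the genes at 100-fold or more in seedpod and flower, and 7.87% of the genes on neither side.

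Among genes with a count in at least 1 of the other 4 tissues, stem was the highest of them for 44.2% of seedpod-side genes and 45.4% of flower-side genes, against 33.7% of all compared genes. Leaf was the highest for 17.2% and 14.6%, against 31.0%. Among genes at 100-fold or more higher in seedpod, roots were the highest for 37.4%, leaf for 23.9%, nodules for 20.9% and stem for 17.8%. Their median levels were only 0.212 TMM CPM in roots, 0.139 in leaf, 0.122 in nodules and 0.096 in stem. At such levels single counts and the scaling can decide which tissue is highest, so no shift between tissues is read from these shares. The minimum level was reached in stem by 45.1% of the seedpod side and 37.7% of the flower side, and in leaf by 24.2% and 14.5%. Seedpod-side genes took 6.12% of the counts in stem, 5.91% in roots, 5.36% in leaf and 3.88% in nodules. Flower-side genes took 2.87% in nodules, 2.20% in stem, 1.65% in roots and 1.43% in leaf.

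Some genes of each side were higher in a vegetative tissue than in the organ that put them on the side. This held for 420 seedpod-side genes (27.1%), with leaf above all others for 128 of them, nodules for 108, roots for 106 and stem for 78. It held for 248 flower-side genes (26.4%), with stem for 87, nodules for 72, leaf for 45 and roots for 44. Flower was the lowest of the 6 libraries for 285 seedpod-side genes (18.4%), and seedpod was the lowest for 127 flower-side genes (13.5%). A level in the low organ at least 4 times below every other library, with all of these at 10 TMM CPM or more, was found for 28 seedpod-side and 9 flower-side genes. The rule of the sides already sets the order within the pair. The same shares were not computed over all compared genes, so these counts are not set against a background.

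Small counts on the low side were common even at the largest ratios. Among genes at 100-fold or more with at least 1000 counts on the high side, 50 were higher in seedpod and had a median of 4 flower counts, or 0.168% of their seedpod counts (0 to 1.11%). The 23 such flower genes had a median of 3 seedpod counts, or 0.112% of their flower counts (0.0383% to 0.727%). Summed over the genes, the low side held 0.247% and 0.232%. The origin of these low counts was not tested.

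By the number of genes past 4-fold, seedpod and flower bud were closer to each other and to stem than to leaf, nodules or roots. Seedpod and flower differed for 2486 genes, or 13.7% of those compared. Seedpod differed from stem for 12.2% of the genes compared in that pair, from roots for 29.9%, from nodules for 39.3% and from leaf for 42.7%. Flower differed from stem for 13.7%, from roots for 29.6%, from nodules for 39.7% and from leaf for 44.7%. Pairs share libraries, so these shares are not independent of each other.

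The PHO2 genes, whose product in plants restrains the uptake of phosphate and its transport from root to shoot, were on neither side on chromosome 2. MS.genePho2-1d had 36.4 TMM CPM in seedpod and 14.1 in flower, a ratio of 2.58 (2.12 to 3.17). The 4 chromosome 2 genes taken as PHO2 copies, itself included, were each 1.91-fold to 2.58-fold higher in seedpod. Only MS.genePho2-1d carries the name. The 4 have coding lengths of 2739 or 2751 nucleotides, so they are not all a copy set as defined above. The 4 genes on chromosome 4 that match MS.genePho2-1d in the lengths of the last 4 exons summed to 55.7 TMM CPM in seedpod and 11.4 in flower, a ratio of 4.88 (3.98 to 6.03). Of these, only the one on 4.4 was on the seedpod side, at 7.80-fold, while the one on 4.2, with 295 of the 500 seedpod counts, was at 3.94-fold and those on 4.1 and 4.3 were below the minimum level.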

How the data were processed

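RNA from 6 tissues of alfalfa was sequenced with paired-end reads, 1 pooled library each. The deposited table holds raw counts for each gene and library, exon positions, strand and summed exon length (a quantity other than a count), per the file headers. The submitters' processing notes list edgeR, featureCounts, FastQC and Trimmomatic with no version. Aligner, genome build, strand setting and the rule for multiply matching reads: not given in the sources used here. Of the exon-length sums of compared genes, 98.8% could be divided by 3, and they are therefore called coding lengths. Of the identifiers, 0 were found among the 63463 genes of the Bolivia_mono assembly.

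Libraries were scaled with TMM over all genes and 6 libraries (edgeR 4.0.16, R 4.3.3), and values are counts per 1000000 of the scaled totals (CPM). DESeq2 1.42.0 size factors, library totals and other minimum levels were alternatives. Ratios with 0 counts on the low side were set against 3 counts. Genes with both sides at 3 counts or fewer had no ratio. Named genes had a lower interval end of 4 or more and at least 300 nucleotides: the 5 highest per kb, the 5 with the highest lower end and the 3 sets with most members, per side. Only the first of each gene list is given by identifier. Members and lists were chosen with earlier results of these data known. Scripts were tested on simulated data. No test was run, since each tissue had 1 library. Calculations and plots used scipy 1.17.1, matplotlib 3.10.9, pandas 2.3.3 and numpy 2.4.6 in Python 3.11.15.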

Additional observations from a re-analysis of the deposited data

How the results depend on the processing

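No paired analysis was possible because each tissue had 1 pooled library, and for the same reason no replicate could be left out. On library totals, without TMM and without the 100 most abundant genes, the median log2 ratio was -0.076 and -0.080 and 46.4% and 46.2% of genes were higher in seedpod. With a minimum of 5 TMM CPM, 1467 genes were higher in flower at 4-fold and 657 at 10-fold, the median was 0.046 and 52.2% were higher in seedpod. With 20 TMM CPM these were 595, 256, 0.10 and 54.6%, and 1023 genes were higher in seedpod at 4-fold. With no minimum level, 5235 genes were higher in seedpod and 4184 in flower at 4-fold, 1964 and 1173 at 10-fold, the median was -0.011 and 49.5% were higher in seedpod. Of the genes past 4-fold, 62.2% were higher in seedpod, and 56.8% to 62.2% over the scalings. Depth limits ratios whose low side has a few counts, as their wide intervals show.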
